A study of Mus musculus with 4 samples.

Results

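Chemokine ligands are small secreted proteins that attract leukocytes, and 8 genes that encode them were read in mouse Treg cells, the regulatory CD4 T cells that are defined by Foxp3 and keep other lymphocytes in check. They were Ccl1, Ccl3, Ccl4, Ccl5, Ccl9, Ccl20, Xcl1 and Cxcl10, taken by name, with all 9 probe sets that the platform annotation assigns to them, out of 18193 named genes and 45101 probe sets on the array. The RNA came from mouse spleen on the C57BL/6 background. The series holds 4 arrays in 2 numbered pairs, each pair with 1 wild-type array and 1 array whose title reads Foxo1/3-deficient, while the genotype field of those arrays names Foxo1 alone; they are called labelled-deficient below. The sources used here do not give the age or sex of the animals, whether RNA was pooled, or how and in which cells the genes were deleted. The labels name no animals, so p-values measure only the spread between these arrays, which may be technical.

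Values are MAS5 signals on a linear scale. A signal under about 40.5, the limit of the filter on dim probe sets, is called dim. Genotypes were compared on log2(signal + 17) with limma, a linear model that shares variance across genes, and a gene fell or rose where its p, adjusted over all genes by Benjamini-Hochberg, was under 0.05. A blocked fit adds the pair number as a term. All 4 arrays had the same trimmed mean (500.003), and median signals ran from 72.0 to 83.4. Foxo1 went against the label: its brightest probe set read 6949 and 6697 on the arrays labelled deficient and 2383 and 1254 on the wild-type arrays. It rose in the fit (log2 1.97 ± 0.30, SE, limma adjusted p = 0.0209). Its other probe sets, among them a dim probe set, were also higher on both labelled-deficient arrays. Foxo3 read 1424 and 1308 against 1876 and 2635 and did not pass the threshold (log2 -0.70 ± 0.24, SE, limma adjusted p = 0.241). The cause of the Foxo1 rise was not tested. The sources used here do not place these probe sets relative to any deleted part, and every direction below is that of the arrays as labelled. All 7 listed Treg markers (Foxp3, Il2ra, Ctla4, Cd4, Cd3e, Ikzf2 and Tnfrsf18) were measured on every array. None of them passed the limma test in either direction (0 at an unadjusted p under 0.05). Foxp3 itself read 6540 and 6285 in wild-type cells against 6504 and 6056 in labelled-deficient cells.

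T cells make chemokine ligands after activation, and each ligand acts on cells that carry its G protein-coupled receptor. Ccl3, Ccl4 and Ccl5 are inflammatory CC chemokines that draw T cells, natural killer cells and monocytes. Ccl1 acts through Ccr8, a receptor of Treg and Th2 cells, Xcl1 through Xcr1 on dendritic cells, Cxcl10 through Cxcr3 and Ccl20 through Ccr6. In Treg cells such ligands are known as part of the activated state, in which they can bring target cells close.

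Among these inflammatory CC ligands, Ccl3 and Ccl5 fell on the labelled-deficient arrays, and Ccl4 was lower by less. Ccl3, also called MIP-1 alpha, read 268 and 281 in wild-type cells of pairs 1 and 2 against 13.2 and 10.6 in labelled-deficient cells. Both labelled-deficient values were dim, so the gene passed the filter through the wild-type arrays, and the pseudocount of 17 in the fold makes the difference smaller. On the log2(signal + 17) scale Ccl3 was 10.1-fold lower (95% interval 5.82 to 17.5; log2 -3.34 ± 0.34, SE; limma adjusted p = 0.00566), while the plain signal ratio was 20.3-fold in pair 1 and 26.5-fold in pair 2.

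Ccl5 (RANTES), which memory and effector T cells store and release, read 13762 and 9119 in wild-type cells against 1779 and 1695 in labelled-deficient cells. No value was near the dim range, and the groups did not overlap. The gene was 6.40-fold lower (95% interval 4.38 to 9.35; log2 -2.68 ± 0.24, SE; limma adjusted p = 0.00418), and the labelled-deficient arrays differed from each other far less than the wild-type arrays did, with an SD of 59.4 against 3283 (n = 2 each). The plain ratio was 7.73-fold in pair 1 and 5.38-fold in pair 2.

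Ccl4 (MIP-1 beta), a close relative of Ccl3 and its neighbour on chromosome 11, read 305 and 291 in wild-type cells against 148 and 127 in labelled-deficient cells. It was lower on both labelled-deficient arrays, by 2.05-fold (95% interval 1.28 to 3.28; log2 -1.03 ± 0.29, SE), without passing the threshold (limma adjusted p = 0.141). It passed once the pair was a block (adjusted p = 0.0283). Ccl4 differed less between genotypes than its neighbour, at log2 -0.97 and -1.10 within pairs 1 and 2 against -3.24 and -3.43 for Ccl3, a gap that was not tested.

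**Figure D1:**
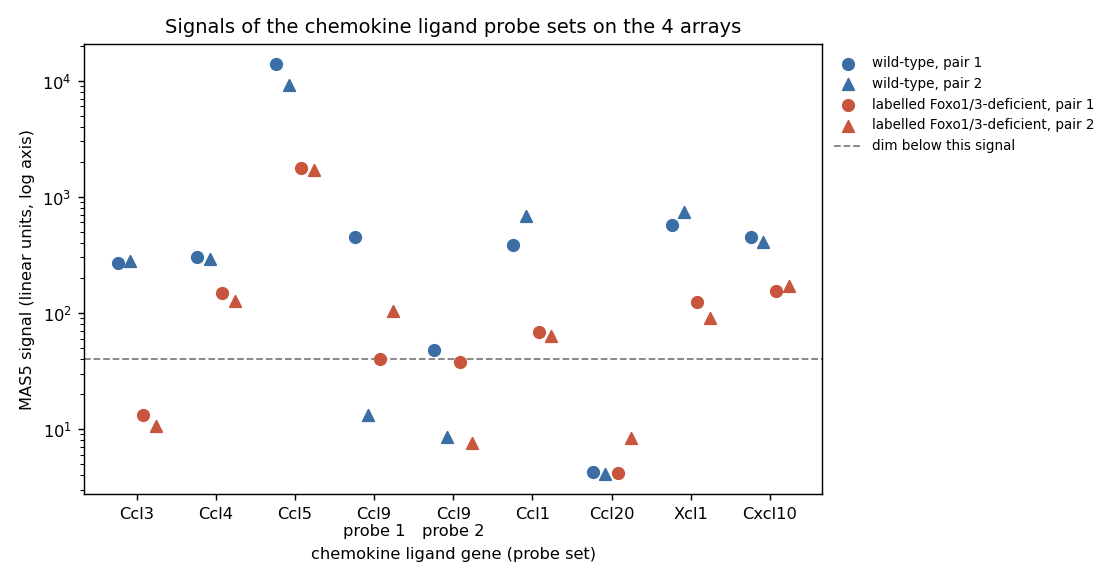
MAS5 signal (log axis) of the 9 chemokine ligand probe sets on the 4 arrays; circles are pair 1, triangles pair 2, blue wild-type and red labelled Foxo1/3-deficient, and the dashed line marks the dim limit of 40.5. Both red points lie below both blue points for Ccl3, Ccl4, Ccl5, Ccl1, Xcl1 and Cxcl10, the points of Ccl9 are mixed, and all 4 points of Ccl20 are at or under 8.31.

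Ccl1 and Xcl1 also fell. Ccl1, which attracts cells that bear Ccr8, read 387 and 686 in wild-type cells against 68.0 and 63.2 in labelled-deficient cells. It was 6.45-fold lower (95% interval 3.64 to 11.4; log2 -2.69 ± 0.36, SE; limma adjusted p = 0.0125), with plain ratios of 5.70-fold and 10.8-fold in pairs 1 and 2. Without the filter on dim probe sets, which adds genes to the adjustment, it missed the threshold (adjusted p = 0.0548, in a range from 1.34e-05 to 0.0548 over its alternatives).

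Xcl1 (lymphotactin), which brings cross-presenting dendritic cells to activated lymphocytes, read 565 and 741 in wild-type cells against 123 and 90.4 in labelled-deficient cells. It was 5.42-fold lower (95% interval 3.30 to 8.89; log2 -2.44 ± 0.31, SE; limma adjusted p = 0.0107). In pair 1 the plain ratio was 4.60-fold and in pair 2 it was 8.19-fold. For Ccl1 and Xcl1 alike, pair 2 held the higher wild-type and the lower labelled-deficient signal, and for Ccl5 it held the lower wild-type signal.

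Cxcl10 (IP-10), an interferon-induced ligand of Cxcr3, read 448 and 409 in wild-type cells against 154 and 171 in labelled-deficient cells. The groups did not overlap, and the difference was 2.48-fold (95% interval 1.58 to 3.89; log2 -1.31 ± 0.28, SE), which missed the threshold (limma adjusted p = 0.0607). It passed with the pair as a block (0.00297), under quantile normalization (0.0459) and on the mean of the probe sets of each gene (0.0349), where its own value was the same and the values of other genes changed; over all its alternatives the adjusted p ran from 0.00297 to 0.257.

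Ccl9 (MIP-1 gamma), a ligand of Ccr1 found in mice, did not follow the genotype. Its brighter probe set read 447 (wild-type) and 40.2 (labelled-deficient) in pair 1, and 13.3 and 104 in pair 2, so that it was 11.1-fold lower in pair 1 and 7.83-fold higher in pair 2, with a dim value in each ratio. The fitted difference was log2 -0.51 ± 1.09 (SE), with a 95% interval from -3.05 to 2.03 (limma adjusted p = 0.943). Without wild-type replicate 2 it stood at -2.48 (0.0113), and without wild-type replicate 1 at 1.46 (0.234). Its other probe set read 47.7 and 38.0 in pair 1 and 8.46 and 7.54 in pair 2 (wild-type first), dim on 3 of the 4 arrays.

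Markers of mast cells and basophils were high on the same array as Ccl9. All 4 of those measured (Mcpt8, Cpa3, Fcer1a and Ms4a2, of 5 listed) were highest on the wild-type array of pair 1, at 148, 67.4, 105 and 165, and their summed signal was 485 there against 55.5 on the other wild-type array and 53.2 and 37.1 on the labelled-deficient arrays. None passed the filter, so none was tested. The 5 neutrophil markers measured summed to 812 there against 232 on the other wild-type array and 306 and 59.3 on the labelled-deficient arrays of pairs 1 and 2, and 495 of the 812 was Mpo, a granule enzyme of neutrophils and their precursors. Mpo, S100a8 and Camp were highest on that array, Ltf on the other wild-type array (102 against 35.1) and S100a9, dim throughout, on the labelled-deficient array of pair 1 (28.2 against 13.8). By limma 2 of the neutrophil markers were tested and 0 passed the threshold, while Mpo fell with the pair as a block. Ccl6, the gene that lies between Ccl9 and Ccl3 in the RefSeq gene table of GRCm38.p6 and encodes a related ligand, read 206 and 78.9 in pair 1 and 46.5 and 88.6 in pair 2 (wild-type first), the same order of the 4 arrays as Ccl9. The part of these cells in the Ccl9 signal was not tested. Without that array, which leaves 1 wild-type array assumed to vary like the others, the fitted log2 difference was -3.37 for Ccl3, -2.38 for Ccl5, -3.09 for Ccl1 and -2.63 for Xcl1. In pair 2, which does not hold that array, the mast cell and basophil sum was 55.5 in wild-type and 37.1 in labelled-deficient cells. All 4 of these markers were dim on both arrays of pair 2, so their sum gives no order there. Ms4a2 was higher with the deficient label (14.5 against 5.15), and Mcpt8, Cpa3 and Fcer1a were lower. The neutrophil sum in pair 2 was 232 and 59.3, lower with the deficient label there too. The part of these cells in the signals of these ligands was not tested.

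**Figure D2:**
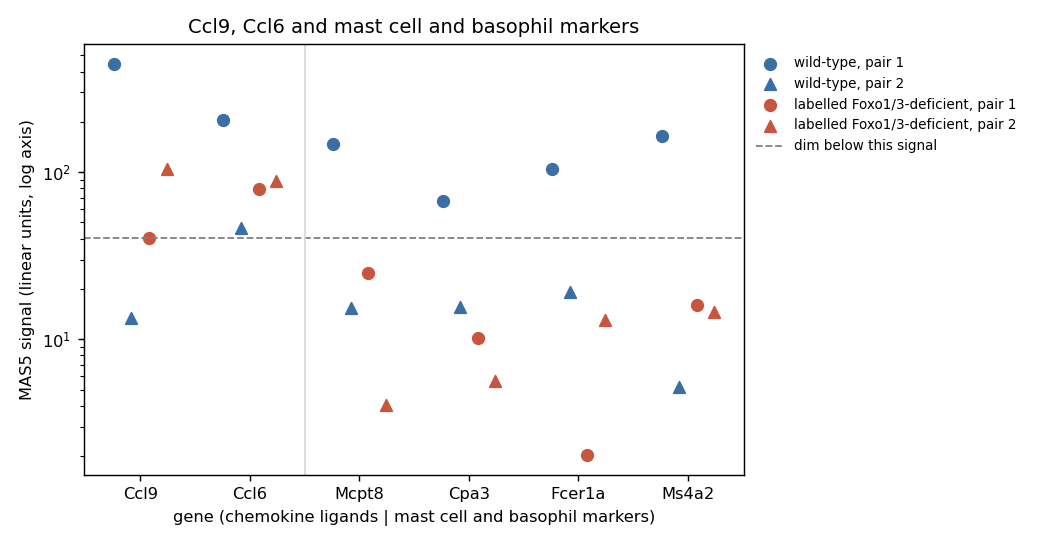
MAS5 signal (log axis) of Ccl9, Ccl6 and the 4 measured mast cell and basophil markers on the 4 arrays, with colours, shapes and dashed line as in the plot of the ligand signals. The wild-type array of pair 1 (blue circle) is the highest for each of the 6 genes, at 447 for Ccl9 and 206 for Ccl6.

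Ccl20, a ligand linked to Ccr6 and Th17 cells, was dim on all 4 arrays, at 4.29 and 4.11 in wild-type cells against 4.15 and 8.31 in labelled-deficient cells. It did not pass the filter and was not tested, and these signals have no order. Detection calls were not analysed here, so dim was not separated from absent.

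In all, 4 of the 8 ligands fell and 0 rose, 3 were tested without passing the threshold and 1 was not tested. Of all 12115 genes tested, 1.35% fell and 1.21% rose. The median log2 difference of the 7 tested was -2.44, beside -0.0034 over all genes, a description only, since Ccl3 passed the filter through the wild-type arrays alone. With the pair as a block 6 of the 8 fell and 0 rose, where 6.36% of all genes fell and 5.23% rose. Both labelled-deficient arrays lay below both wild-type arrays for 6 of the 7, as for 21.1% of all genes (both lay above for 20.0% of all genes and for 0 of the 7), and the same 6 were at least 2-fold lower by plain signal in both pairs, as were 2.69% of all genes. The smallest p of an exact permutation test with 2 arrays a group is 0.333, so each call leans on the variance that limma shares across genes. Fewer cells that make a ligand and less of its RNA per cell cannot be told apart in bulk RNA.

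**Figure D3:**
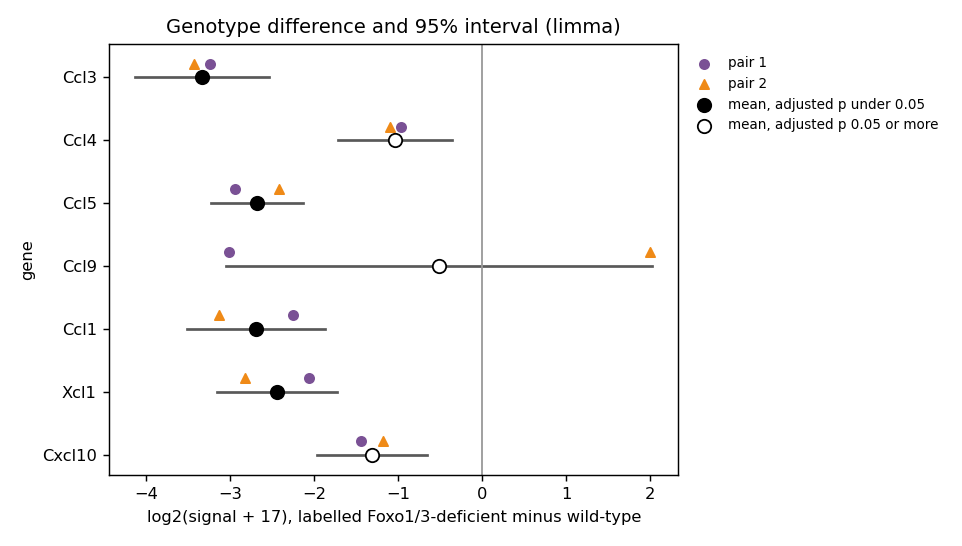
Difference in log2(signal + 17), labelled-deficient minus wild-type, for the 7 ligands tested; large circles are the means over both pairs with 95% intervals from limma (filled where adjusted p is under 0.05), small circles are pair 1 and triangles pair 2. The pairs lie close together for Ccl3 (-3.24 and -3.43) and on opposite sides of 0 for Ccl9 (-3.02 and 2.00).

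Cells other than Treg cells that can make these ligands were read from their markers. The CD8 genes Cd8a and Cd8b1 summed to 518 and 367 in wild-type cells against 423 and 663 in labelled-deficient cells, with 0 of 2 past the threshold. Of 5 natural killer cell markers measured, Ncr1 and Klra8 were dim on every array and 4 did not pass the filter; the list summed to 1442 and 499 against 1115 and 1386, most of it Tyrobp. Macrophage and monocyte markers were higher on the labelled-deficient arrays within each pair, summing to 7260 and 4798 in wild-type cells against 10017 and 7516 in labelled-deficient cells, with 0 of 6 past the threshold, 2 higher with the pair as a block (Csf1r and Adgre1), and Itgam dim. Dendritic cell markers summed to 899 and 704 in wild-type cells against 927 and 708, with Xcr1 dim. Stromal and endothelial markers, mainly Vcam1, summed to 3533 and 2283 against 6280 and 4196. Of these 0 of 4 passed the threshold, and Vcam1 was higher with the pair as a block. B cell markers summed to 2236 and 755 in wild-type cells against 2603 and 1675, with 0 of 3 past the threshold and Ms4a1 higher with the pair as a block. Red cell markers summed to 39.6 and 158 against 187 and 129. Platelet markers summed to 343 and 424 on the wild-type arrays of pairs 1 and 2 and to 281 and 310 with the deficient label, with Gp9 dim. Of these 0 of 3 passed the threshold, and most of the sum was Itga2b. Itga2b and Pf4 were lower with the deficient label in both pairs. Ppbp was higher in pair 1, where it was dim (38.8 against 24.7), and lower in pair 2 (45.2 against 83.3). The macrophage, stromal, B cell and dendritic cell sums were thus higher with the deficient label in both pairs, the last by little. The CD8 sum was lower in pair 1 and higher in pair 2, and the red cell sum the reverse. The natural killer sum had the order of the CD8 sum, mostly through Tyrobp (1277 and 396 in wild-type against 1021 and 1295). Klre1 and Klrb1b were dim on all arrays but the wild-type array of pair 1. Klre1 was lower in both pairs (70.0 and 37.5 against 38.3 and 20.0), and Klrb1b lower in pair 1 only. The sum thus says little about natural killer cells. The neutrophil and platelet sums were lower in both pairs, as were Ccl1, Ccl3, Ccl4, Ccl5, Xcl1 and Cxcl10. The mast cell and basophil sum was lower in pair 1, and its markers were dim on both arrays of pair 2. Ccl9 was lower in pair 1 and higher in pair 2, and Ccl20 was dim on all 4 arrays. The part of these cells in the ligand signals was not tested.

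In the RefSeq gene table of GRCm38.p6 the protein-coding genes Ccl5, Ccl9, Ccl6, Ccl3 and Ccl4 follow each other on chromosome 11, so that genes with unlike patterns here (Ccl9 and Ccl6 beside Ccl5 and Ccl3) are direct neighbours. Ccl1 lies on the same chromosome away from them, Xcl1 and Ccl20 on chromosome 1 and Cxcl10 on chromosome 5. The sequence before the annotated start is shown for the ligands that fell and for Cxcl10, because these genes were lower on the same arrays and the words in their promoters differ. RefSeq promoters of that build matched 6 of the 8 genes, all but Ccl4 and Ccl5. Each line gives the 250 bases that end just before the start site, 5′ to 3′ in the direction of transcription, with matches to the searched words in capitals: GTAAACA (forkhead factors such as the FoxO proteins), an NF-kappaB word (GGGA, any 4 bases, then CC) and TGANTCA (AP-1), each on both strands. The Ccl1 sequence is chr11:82179813-82180062 (- strand), that of Ccl3 chr11:83649379-83649628 (- strand), that of Xcl1 chr1:164935523-164935772 (- strand) and that of Cxcl10 chr5:92348890-92349139 (- strand).
Ccl1: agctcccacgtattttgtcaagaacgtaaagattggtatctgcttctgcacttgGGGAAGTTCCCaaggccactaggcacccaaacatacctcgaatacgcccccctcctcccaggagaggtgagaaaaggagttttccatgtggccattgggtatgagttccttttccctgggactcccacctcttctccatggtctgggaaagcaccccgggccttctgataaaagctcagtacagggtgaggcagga
Ccl3: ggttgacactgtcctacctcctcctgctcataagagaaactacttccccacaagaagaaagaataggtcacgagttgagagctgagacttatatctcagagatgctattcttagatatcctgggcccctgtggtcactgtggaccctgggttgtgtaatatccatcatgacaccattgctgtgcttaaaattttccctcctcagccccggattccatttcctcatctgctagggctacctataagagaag
Xcl1: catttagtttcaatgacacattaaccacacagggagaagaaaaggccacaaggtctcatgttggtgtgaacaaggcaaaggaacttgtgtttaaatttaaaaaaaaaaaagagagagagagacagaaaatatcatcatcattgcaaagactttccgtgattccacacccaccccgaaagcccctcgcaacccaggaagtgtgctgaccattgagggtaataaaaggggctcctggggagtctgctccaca
Cxcl10: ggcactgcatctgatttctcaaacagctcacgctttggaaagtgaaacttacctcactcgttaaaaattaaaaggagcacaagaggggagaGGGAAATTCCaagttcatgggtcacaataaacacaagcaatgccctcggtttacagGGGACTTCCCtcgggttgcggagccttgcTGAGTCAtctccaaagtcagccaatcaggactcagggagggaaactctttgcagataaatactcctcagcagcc

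Cxcl10 held 2 separate places that match the NF-kappaB word, starting 159 and 103 bases before the start. The latter matches the word on both strands. An AP-1 word stood at 74 bases. Ccl1 held 1 such place, in which a match on each strand overlaps the other, starting 196 and 195 bases before the start. The windows of Ccl3 and Xcl1 held none of the 3 words, and the forkhead word was in none of the 6 windows. Of the windows not printed, Ccl9 held an AP-1 word and Ccl20 an NF-kappaB word. Among all 32851 RefSeq promoters searched the same way, 17.6% held the NF-kappaB word, 6.75% the AP-1 word and 3.17% the forkhead word. A match is a description of letters, and a missing word says only that those letters are not in the window.

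Of the receptors for these ligands, Cxcr3 fell. Cxcr3, the Th1 cell receptor for Cxcl10, read 15715 and 13900 in wild-type cells against 4507 and 6347 in labelled-deficient cells, 2.76-fold lower (log2 -1.46 ± 0.21, SE; limma adjusted p = 0.0178); the call was lost without the filter (0.0633) and without the intensity trend (0.0847), in a range of 1.61e-05 to 0.0847. Of the 6 receptors named on the array, 5 were tested, 1 fell and 0 rose (median log2 difference -0.86).

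Receptors of the CC ligands did not pass the threshold. Ccr1, which binds Ccl3, Ccl5 and Ccl9, read 146 and 146 in wild-type cells against 74.2 and 71.8 in labelled-deficient cells (log2 -0.86 ± 0.32, SE; limma adjusted p = 0.286). Ccr3, a further Ccl5 receptor, read 93.0 and 44.3 against 201 and 132 (1.13 ± 0.41, adjusted p = 0.266), the 1 tested receptor that lay above 0. Neither gene's groups overlapped.

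Ccr8, the Ccl1 receptor, differed between the pairs, with 93.6 and 99.8 in pair 1 and 245 and 26.7 in pair 2 (wild-type first; log2 -1.25 ± 0.58, limma adjusted p = 0.440). Ccr6, the Ccl20 receptor, read 1529 and 984 in pair 1 and 1274 and 1783 in pair 2, with a fitted log2 difference of -0.07 ± 0.31 (limma adjusted p = 0.980; 95% interval -0.79 to 0.65). Xcr1, the Xcl1 receptor of dendritic cells, was dim on all 4 arrays, with a highest signal of 35.8.

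Of 32 other chemokine ligands listed 13 were tested, and by limma 0 fell and 0 rose (1 lower and 0 higher at an unadjusted p under 0.05), with a median log2 difference of -0.21 and 9 of the 13 below 0. The difference between these ligands and the members was not tested. Cxcl9, like Cxcl10 an interferon-induced Cxcr3 ligand, read 217 and 146 in wild-type cells against 85.7 and 40.5 in labelled-deficient cells (log2 -1.35 ± 0.41, SE; adjusted p = 0.169), lower in both pairs (log2 -1.19 and -1.51) as Cxcl10 was (-1.44 and -1.18), and was the 1 gene that fell with the pair as a block (0.0199). Pf4 and Ppbp in this list also stand among the platelet markers.

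Among other chemokine receptors, 1 of 13 tested rose and 0 fell (limma; median log2 -0.14). Ccr7, which guides T cells into lymph nodes, read 846 and 324 in wild-type cells against 5797 and 3535 in labelled-deficient cells, opposite in direction to the ligands (log2 3.07 ± 0.44, SE; adjusted p = 0.0170); without the filter its adjusted p was 0.0608 and without the intensity trend 0.0624, in a range of 5.06e-09 to 0.0624. With the pair as a block Ccr2, Cxcr6 and Ccrl2 fell besides, where 6.36% of all genes fell.

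Genes that carry the signal of chemokine receptors, such as G protein subunits, Rgs brakes, arrestins and Dock2, gave 0 rises and 0 falls among 28 tested (limma; 5 higher and 3 lower at an unadjusted p under 0.05; median log2 -0.02). With the pair as a block 4 rose (Rgs10, Rgs2, Pik3r5 and Arrb1) and 3 fell (Rgs1, Jak2 and Gng2). Of all genes 5.23% rose and 6.36% fell in that blocked fit.

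Of the genes listed as possible inducers of chemokine ligands in T cells, called inducers here, 26 were tested, 4 fell and 0 rose (median log2 difference -0.54). Whether each of them, Prdm1 included, induces these ligands was not tested. Tbx21, which encodes the Th1 factor T-bet, read 2399 and 1961 in wild-type cells against 449 and 491 in labelled-deficient cells, 4.49-fold lower (log2 -2.17 ± 0.24, SE; limma adjusted p = 0.00629). Ifng, the interferon that induces Cxcl9 and Cxcl10, read 1382 and 2738 against 254 and 298 (6.72-fold lower, adjusted p = 0.0107). Eomes, a T-box factor, was 3.53-fold lower (0.0200), and Prdm1 (Blimp-1), a factor of effector cells, was 2.66-fold lower (0.0288). The last 2 calls were lost without the filter (0.0540 and 0.0644), without the intensity trend (0.0520 and 0.0788) and without 1 labelled-deficient array, Eomes without replicate 2 (0.0544) and Prdm1 without replicate 1 (0.144).

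The NF-kappaB, NFAT and AP-1 genes on that list did not pass the threshold. Rela read 3500 and 2907 in wild-type cells against 4255 and 3026 in labelled-deficient cells (log2 0.17 ± 0.23, SE; limma adjusted p = 0.885), and Nfkb2 752 and 740 against 409 and 311 (-1.03 ± 0.27, adjusted p = 0.106). Blocking on the pair, 12 of the list fell, among them Nfkb2, Relb, Nfatc2 and Irf1, and 2 rose (Irf4 and Klf13). In that blocked fit 6.36% of all genes fell and 5.23% rose. The 4 ligands fell on the same arrays on which the Th1 genes Tbx21 and Ifng were lower. That holds for every gene that fell, since there are only 2 labelled-deficient arrays. A link between these genes and the ligands was not tested.

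**Figure D4:**
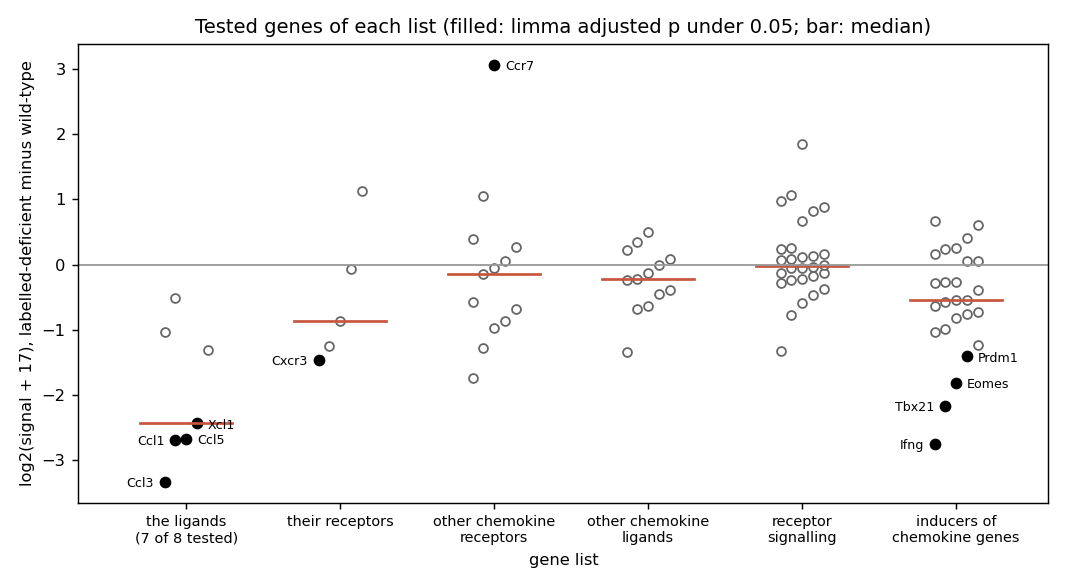
Difference in log2(signal + 17), labelled-deficient minus wild-type, for every tested gene of the ligands and of 5 further lists; filled points passed limma's adjusted p of 0.05 and bars mark medians. The medians are -2.44 for the ligands, -0.86 for their receptors, -0.14 for other receptors, -0.21 for other ligands, -0.02 for signalling and -0.54 for inducers.

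The genes whose pattern over the 4 arrays lay nearest to each ligand that fell were found by the root mean square difference of centred log2(signal + 17) values. Ccl3 was nearest to Gzmb, a granule protease (0.10), Ltbp1, which binds latent TGF-beta (0.11), and Il1r1, an interleukin-1 receptor (0.14). Gzmb read 19619 and 18769 in wild-type cells against 1691 and 1646 in labelled-deficient cells. Ltbp1 (6.66 and 7.26) and Il1r1 (11.7 and 13.3) were dim on both labelled-deficient arrays, as Ccl3 was. The pseudocount shrinks differences between such dim values. Ccl1 was nearest to Cables1 (0.042), Gm30173 (0.090) and Ifng (0.13), which share with it the higher signal on the wild-type array of pair 2. Gm30173 was dim on both labelled-deficient arrays.

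Ccl5 was nearest to Il12rb1, a chain of the interleukin-12 receptor (0.12), Tbc1d2 (0.15) and Rnf152 (0.18), all 3 with the higher wild-type signal in pair 1. Tbc1d2 and Rnf152 were dim on both labelled-deficient arrays. Xcl1 was nearest to Cd160, a receptor of cytotoxic lymphocytes (0.16), Hip1 (0.17) and Plcd1, a phospholipase C (0.17). With 4 arrays many genes lie close by this measure, and it says nothing of shared function or control.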

How the data were processed

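The authors deposited linear intensity values per probe set. Per the submitters' processing notes MAS5 made them, which subtracts background and scales each array; the sources used here give neither its version and settings nor a genome build. Probe sets were named by the platform annotation, which can be old, with symbols updated through Entrez IDs against RefSeq (GRCm38.p6): 34945 had 1 symbol, 932 several and 9160 none, and 64 were controls. The whole table was fitted with limma 3.58.1 in R 4.3.3 on log2(signal + 17), where 17 is the rounded 25th percentile (lmFit, eBayes with an intensity trend, two-sided, Benjamini-Hochberg over 12115 genes, threshold 0.05). Probe sets under the 40th percentile of mean log2 signal were left out, and a gene's brightest probe set by mean stood for it. The fit had 2 residual and 5.69 prior degrees of freedom. It was also run on simulated data with known changes and independent noise. That run left out the pairing of these arrays, so it does not measure error rates here. The titles give the pairs; deviations from group means correlated at 0.367 between same-numbered arrays, across genes, which are not independent replicates. The pair entered as a block in an alternative fit. Intervals are limma's, at 95%. Depth has no counterpart here: the number of arrays limits the precision.

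Members and lists were chosen with earlier results of these data known. Named were all members, every called gene of the fixed lists, all receptors of the members and the 3 genes nearest to each called member; other genes printed (Cxcl9, Ccl6, Rela, Nfkb2, genes called only with the block, and single markers) were chosen after their values were seen. A planned comparison of protein sequences was not made. Listed genes with no probe set of 1 symbol were not analysed here.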

Additional observations from a re-analysis of the deposited data

Results flagged for a closer look

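Ccl9, Ccr8 and Ccr6 moved in opposite directions in the 2 pairs; these differences between pairs were not tested, since each pair holds 1 array of each label. The log2(signal + 17) ratio of labelled-deficient over wild-type was -3.02 in pair 1 and 2.00 in pair 2 for Ccl9. For Ccr8 it was 0.079 and -2.58, and for Ccr6 it was -0.63 and 0.48. No other tested ligand or receptor of these ligands changed sign between the pairs.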

How the results depend on the processing

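Ccl3, Ccl5 and Xcl1 stayed lower and past the threshold in every alternative in which they were tested (13, 14 and 14), with an adjusted p of at most 0.0309, 0.0263 and 0.0491; Ccl3 and Ccl9 did not pass the filter at the 60th percentile. Ccl1 (log2 -2.69) missed the threshold without the filter. With the pair number as a replicate block Ccl4 (-1.03) and Cxcl10 (-1.31) passed, as Cxcl10 did under quantile normalization (-1.39) and on the mean of probe sets (-1.31). Ccl9 lay between -2.48 and 1.46 when 1 array was left out, and turned sign without wild-type replicate 1 (1.46) and Foxo1/3-deficient replicate 1 (0.03). Over all genes, rises and falls numbered 147 and 164, 45 and 44 without the filter, 634 and 770 with the block, 57 and 54 without the intensity trend, and 67 to 278 and 82 to 266 when 1 array was left out. The other chemokine ligands, receptors and signalling genes gave 1 rise and 1 fall, 0 and 0 without the filter or the trend, and 5 and 8 with the block; falls numbered 2 with the median as pseudocount, with every probe set tested and on the mean of probe sets. With 1 array left out they gave 1 to 4 rises and 1 to 5 falls. Inducers gave 0 rises and 4 falls, 2 falls without the filter or the trend, and 2 rises and 12 falls with the block; with 1 array left out, 0 to 1 rises and 3 to 5 falls. Without a pseudocount the log2 ratio within pairs was -4.35 and -4.73 for Ccl3 (pairs 1 and 2), -1.20 for Ccl4 in pair 2 and 1.01 for the dim Ccl20 in pair 2. With dim set at a signal of 100, 7, 4, 6 and 4 of the 9 probe sets were not dim on the wild-type and labelled-deficient arrays of pair 1 and then of pair 2, against 8, 5, 6 and 6. Leaving out the filter adjusts over more genes, leaving out an array fits fewer arrays, and a pseudocount shrinks ratios of dim signals by construction; the cause of the other changes was not tested. The number of arrays and signals near the dim limit (Ccl3, Ccl9, Ccl20) limit every value here.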
